A study of Homo sapiens with 5 samples.

Results

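A549 and CRL-5907 are human lung cancer cell lines, and their control states were compared here across 14232 genes, on the 1 control array of each line. The genes were those of the 14432 features, of 22011 on the array, that carry exactly 1 gene symbol; a gene with several features was read from the feature with the highest mean over the 5 arrays. Ribosome-depleted total RNA of each sample was hybridised to 1 Affymetrix exon array. A549 is a lung adenocarcinoma line, which per the submitters has lost LKB1 (gene STK11) function by mutation and has raised NEDD9; its array is labelled only as control. CRL-5907, per the submitters, has intact LKB1 and low NEDD9, and its array is likewise labelled only as control. The other 3 arrays of the series, A549 with each of 2 short hairpins against NEDD9 (shNEDD9 #1 and #2) and CRL-5907 with NEDD9 overexpression, served only to show whether a difference between the lines was also present in manipulated cells. The description of the second hairpin array names NEDD10 where its title names NEDD9, and the title was followed. The labels do not say whether the control cells carried a vector, nor whether arrays of 1 line came from separate cultures.

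Carcinoma lines grown from the same organ can sit at different points between an epithelial state, in which cells are joined by E-cadherin, claudins and desmosomes, and a mesenchymal state with vimentin, N-cadherin and fibronectin. TGF-beta, a secreted growth factor, is a known inducer of the mesenchymal state. LKB1 is a kinase that activates AMPK and its relatives, and NEDD9, a Cas-family adaptor, links focal adhesions to downstream kinases.

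Each value below is a log2 level or, where called a difference, the log2 level on the A549 control minus that on the CRL-5907 control. With 1 array a line there is no replicate, no test and no error of the difference; genes were named by size, and a gene is called higher or lower when it differed by at least 2-fold (a log2 difference of 1). Only genes whose brighter control lay above the median of its array (5.80 on A549, 5.69 on CRL-5907) were counted, which were 7756 of 14232. A gene that passed this filter only on its bright array tends to differ for that reason, so the count among genes above the median on both controls is given beside the counts of most lists. The shares over all genes to read list counts against are 9.82% higher and 4.98% lower, or 6.24% and 3.1% above the median on both controls. Background was not measured for single genes, so where a level lay below the median the size of the fold is uncertain. A difference is said to persist when each of the 6 pairings of 1 A549 array with 1 CRL-5907 array also passed 2-fold in the same direction.

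On the A549 control 762 of the 7756 genes (9.82%) were higher than on the CRL-5907 control and 386 (4.98%) were lower. At 4-fold 211 genes were higher (2.72%) and 115 lower (1.48%), at 8-fold 90 (1.16%) and 42 (0.542%), and at 16-fold 36 (0.464%) and 12 (0.155%). Among the 6573 genes above the median on both controls, 410 (6.24%) were higher and 204 (3.1%) lower. The same 7756 genes gave far fewer 2-fold differences between arrays of 1 line. Hairpin 1 and hairpin 2 differed in 8 genes (0.103%), each hairpin and the A549 control in 14 (0.181%) and 11 (0.142%), and overexpression and the CRL-5907 control in 55 (0.709%). The 2 lines thus differed in 1148 genes (14.8%), and 3256 genes (42.0%) lay within 1.2-fold of each other. The called share rose with the level on the brighter control, from 8.72% of the dimmest 1939 counted genes to 22.4% of the brightest 1939. That level also enters the difference, so part of this rise is built in. The higher genes outnumbered the lower ones, making up 66.4% of calls; with quantile normalization applied again they made up 57.5%, and with centred arrays 58.4%, so the balance depends in part on the scaling.

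**Figure D1:**
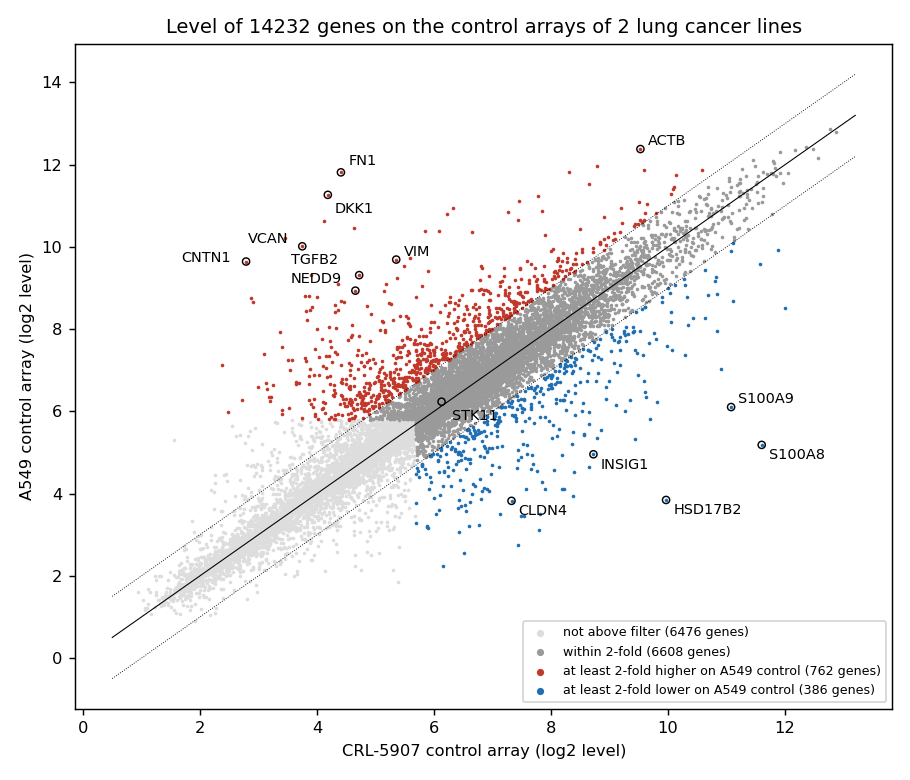
Log2 level on the A549 control (vertical) against the CRL-5907 control (horizontal) for 14232 genes, 1 array each; the solid line marks equal levels and the dotted lines 2-fold. The 762 genes higher and 386 lower on the A549 control lie outside the dotted lines, with FN1 and DKK1 far above, S100A8 and HSD17B2 far below, and STK11 close to the line of equal levels.

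The differences between the controls were mostly present in manipulated cells too. Of the 762 higher genes 538 passed 2-fold in all 6 pairings (6.94% of the genes counted), and of the 386 lower genes 265 did (3.42%). The control pair that chose these genes is 1 of the 6 pairings, and most of the others share an array with it. The 3 A549 arrays and the 2 CRL-5907 arrays did not overlap in 5234 of all 7756 genes (67.5%), by any size of gap. They did not in 1135 of the 1148 genes, which were chosen for a gap between 2 of these 5 arrays. Overlap was seen in 13 genes: NEDD9, AK4, CKS2, GNG4, H3C2, H3C3, NDRG1, RSPO3 and TNFSF15 among the higher, and ADH6, HLA-DMB, SNTB1 and TAS2R4 among the lower. NEDD9, the gene manipulated, lay at 8.94 on the A549 control, 8.35 with hairpin 1, 8.52 with hairpin 2, 4.66 on the CRL-5907 control and 9.49 with overexpression. Its A549 control level was 19.4-fold the CRL-5907 control level, and the overexpression array lay above all 3 A549 arrays. HLA-DMB, which helps load peptides on MHC class II, was at 7.93, 8.24 and 7.98 on the A549 arrays against 8.94 and 7.87 on the CRL-5907 arrays; the overexpression array lay below the A549 arrays. STK11 itself was close to equal, at 6.23, 6.11 and 6.13 on the A549 arrays against 6.13 and 6.13 on the CRL-5907 arrays. A transcript level says nothing of the mutation that the submitters report.

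**Figure D2:**
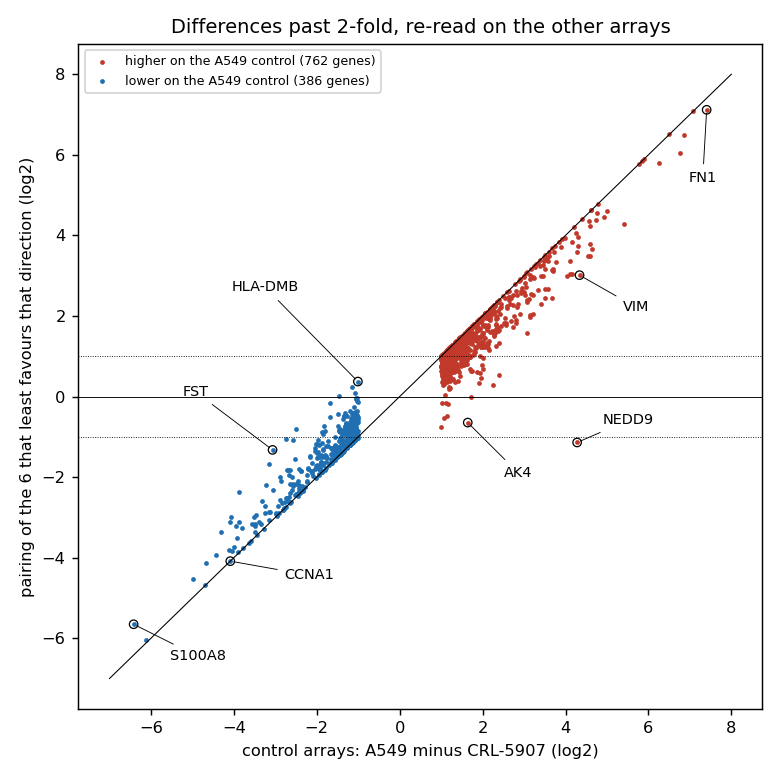
For the 1148 genes past 2-fold, the difference between the control arrays (horizontal, log2) against the pairing, of 6, that least favours that direction (vertical, log2); the solid line marks equal values and the dotted lines 2-fold. Most genes stay near the solid line, and NEDD9, at 4.28 between the controls and -1.14 in its least favourable pairing, is the clearest exception.

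The labelled cell type was checked on markers. Of all 14232 genes 6573 were above the array median on both controls and 6476 were below the filter. Below the filter were 14 of 46 measured epithelial genes, ESRP1, GRHL2, RAB25 and CDH3 among them. Above the array median on both controls were 24 of the 46, a share not far from that of all genes. Those above it on both included CDH1, which encodes E-cadherin, at 8.87 on A549 and 8.38 on CRL-5907, EPCAM at 6.56 and 8.0, and the simple epithelial keratins KRT8 at 11.69 and 11.04 and KRT18 at 9.48 and 9.03. Of 13 leukocyte markers 12 lay below the filter, PTPRC among them, as did 8 of 10 fibroblast and 10 of 11 endothelial markers. CD14 (6.47 and 6.91), COL1A1 (5.79 and 5.88), PDGFRL and CLDN5 were the ones above it, and none differed by 2-fold. Of 40 measured lung lineage markers 23 were below the filter on both controls, a share only somewhat above that of all genes (6476 of 14232). They included SFTPB, SFTPC and SFTPD (surfactant proteins), SCGB1A1 (club cells) and FOXJ1 (ciliated cells).

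A set of mesenchymal genes was higher in A549. Of 27 measured members of the mesenchymal list 22 had a positive and 3 a negative difference, with a median of 0.45 against 0.01 over all genes. Among the 14 that passed the filter 8 were higher (against 9.82% of all genes), none lower, and 6 of the 8 persisted. Above the median on both controls 3 of 9 were higher (against 6.24%). FN1, fibronectin, an extracellular glycoprotein that integrins bind, had the largest difference of all counted genes: it stood at 11.81 on the A549 control, 11.87 with hairpin 1, 11.80 with hairpin 2, 4.41 on the CRL-5907 control and 4.69 with overexpression. The smallest of its 6 differences was 7.12. VIM, the intermediate filament vimentin, stood at 9.69, 9.56 and 9.57 on the A549 arrays against 5.35 and 6.55 on the CRL-5907 arrays, a difference of 4.34 between the controls that was 3.01 in the closest pairing; the overexpression array lay 1.19 above the CRL-5907 control. CDH2, N-cadherin, was at 6.69, 6.72 and 6.68 on the A549 arrays against 3.69 and 3.59 on the CRL-5907 arrays. AXL, a receptor tyrosine kinase often found in mesenchymal carcinoma cells, was at 9.25, 9.06 and 9.44 on the A549 arrays against 5.36 and 5.09 on the CRL-5907 arrays. The matrix crosslinking enzyme LOXL2 (2.24), the tropomyosins TPM2 (2.18) and TPM1 (1.19) and the ectonucleotidase NT5E (1.74) were the remaining higher members. Of 8 measured transcription factors that drive the mesenchymal state 2 passed the filter, with a median difference of 0.19, and neither reached 2-fold. ZEB1 differed by 0.81 and was the only one of SNAI1, SNAI2, TWIST1, ZEB1 and ZEB2 above the filter.

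Some epithelial genes were lower in A549, while others were equal. Of the 32 filtered members of the epithelial list none was higher and 9 were lower (against 4.98% of all genes), 6 of them in all 6 pairings; the median over all 46 measured members was -0.11. Above the median on both controls 3 of 24 were lower (against 3.1%). CLDN4, CLDN7, ST14, CGN and DSC2 were among the lower members below it on A549. With either hairpin array or the overexpression array in place of a control, 1 member was higher. The lower members were mainly tight junction and surface genes. CLDN4, a claudin of tight junctions, was at 3.82, 3.83 and 3.36 on the A549 arrays against 7.32 and 7.20 on the CRL-5907 arrays. CLDN7, another claudin, differed by -2.59 and CGN, the junction protein cingulin, by -1.14. SPINT1, an inhibitor of membrane serine proteases, was at 6.35, 6.24 and 6.34 on the A549 arrays against 9.63 and 9.82 on the CRL-5907 arrays, and its target protease ST14, matriptase, differed by -1.28. MAL2 and MYO5B, both of apical membrane traffic, differed by -3.48 and -1.59. EPCAM, an epithelial adhesion molecule, was at 6.56, 7.18 and 6.82 on the A549 arrays against 8.0 and 8.22 on the CRL-5907 arrays, lower in A549 on every array but by under 2-fold in some pairings. E-cadherin and most filtered keratins did not share this direction: CDH1 differed by 0.50, KRT18 by 0.45, KRT8 by 0.64, KRT19 by 0.73 and KRT7 by 0.99, all short of 2-fold on the A549 side. KRT14 differed by 0.63 and KRT80, the one filtered keratin with a negative difference, by -0.87; KRT13 (-0.12) and KRT15 (-0.32) were below the filter. Of the desmosomal genes DSC2 was lower (-1.25), while DSP (-0.67) and DSG2 (-0.01) were within 2-fold.

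**Figure D3:**
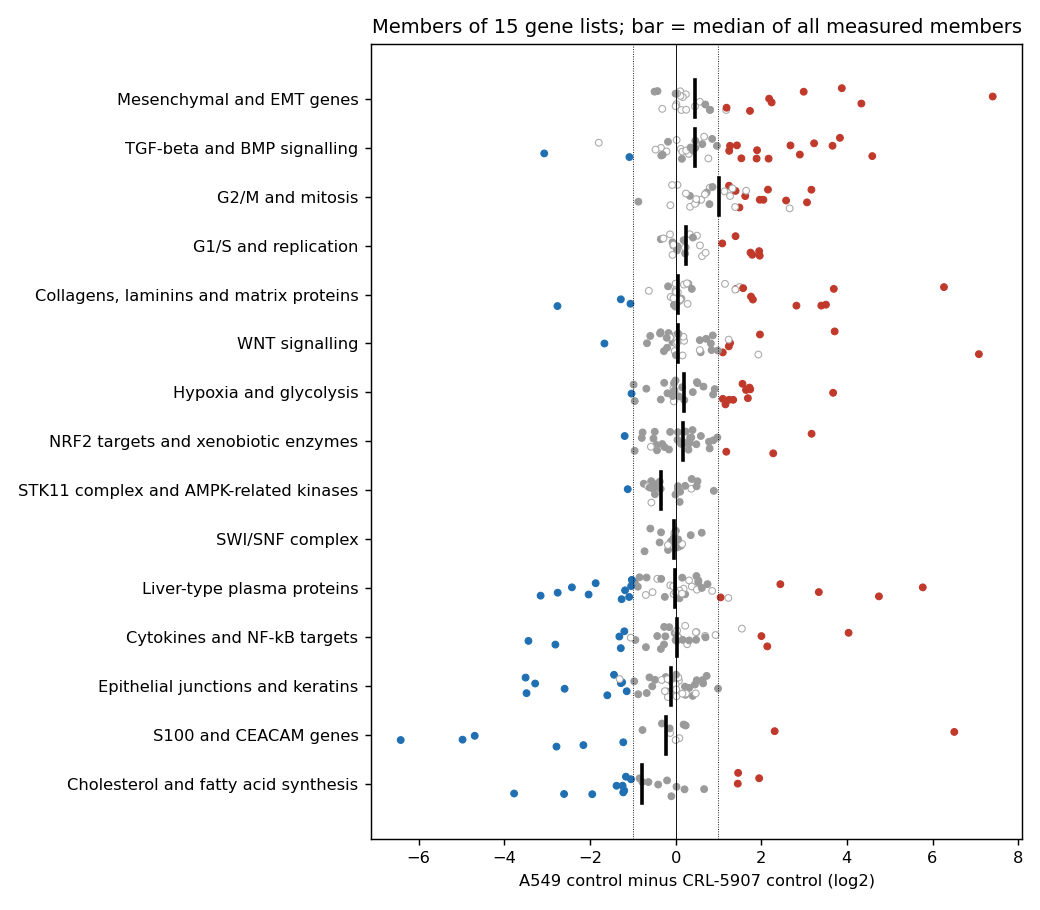
Difference of the A549 control from the CRL-5907 control (log2, horizontal) for every measured member of 15 gene lists, 1 row a list; red and blue points are at least 2-fold higher and lower, grey within 2-fold, open points not above the level filter, and black bars are medians over all measured members. The medians run from 1.00 for mitosis genes to -0.77 for cholesterol and fatty acid genes.

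Matrix and adhesion genes held some of the widest gaps on the A549 side. Of 23 filtered matrix genes 9 were higher (against 9.82% of all genes), all 9 in all 6 pairings, and 3 were lower (against 4.98%). Above the median on both controls 4 of 16 were higher and 2 lower, so 5 of the 9 passed the filter only through A549. The list median was 0.07, and most collagens and laminins were near equal or not above the filter. VCAN, the proteoglycan versican, was at 10.01, 10.07 and 10.34 on the A549 arrays against 3.75 and 4.22 on the CRL-5907 arrays. TGFBI, a matrix protein induced by TGF-beta, was at 11.82, 11.60 and 11.74 on the A549 arrays against 8.31 and 8.92 on the CRL-5907 arrays. The glypican GPC6 (3.69), the fibrillin FBN2 (3.40), the basement membrane collagen COL4A5 (2.82), the syndecan SDC1 (1.81), the laminin chain LAMB1 (1.76), the matricellular protein CCN2 (1.58) and the collagen COL5A2 (1.41) made up the others. LAMA4, a laminin chain of vessel and muscle basement membranes, went the other way, at 3.70, 3.75 and 3.84 on the A549 arrays against 6.46 and 6.55 on the CRL-5907 arrays, and FBLN5, a fibulin (-1.28), and SDC4, a syndecan (-1.05), were lower too. Of the 20 measured integrins 8 passed the filter, with 4 higher and 1 lower (against 9.82% and 4.98% of all genes). Above the median on both controls the counts were 3 and 1 of 7. ITGB5 (1.99), ITGA6 (1.39), ITGA2 (1.26) and ITGAV (1.03) were higher, and ITGB4, the hemidesmosome chain that pairs with ITGA6, was lower (-1.55). ITGAV and ITGA2 did not keep 2-fold in every pairing. Of 22 filtered Cas and focal adhesion genes 7 were higher (against 9.82% of all genes), the manipulated gene among them, and none lower; above the median on both controls 6 of 20 were higher. They were NEDD9, TNS4 (1.75), PARVA (1.61), ILK (1.43), TNS3 (1.14), SRC (1.13) and TGFB1I1 (1.01), of which PARVA, ILK and SRC persisted. BCAR1, the founding Cas scaffold, was near equal (-0.24), as was PXN, paxillin (-0.01).

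Of 21 filtered proteases and inhibitors 4 were higher and 3 lower (against 9.82% and 4.98% of all genes), and above the median on both controls 3 of 16 were higher and none lower. MMP7, matrilysin, a small secreted metalloprotease of epithelia, was at 10.39, 10.13 and 10.12 on the A549 arrays against 5.85 and 6.64 on the CRL-5907 arrays. SERPINE2, an inhibitor of serine proteases, differed by 2.36 and MMP24 by 1.83, and ADAM9, a membrane metalloprotease, by 1.06. TIMP3, a metalloprotease inhibitor bound to the matrix, was lower in A549, at 5.55, 6.04 and 5.43 on the A549 arrays against 8.86 and 8.63 on the CRL-5907 arrays, and so were MMP14, a membrane-anchored metalloprotease (-1.27), and F3, tissue factor (-1.20). The urokinase PLAU (0.95) and its receptor PLAUR (0.93) came close to 2-fold on the A549 side without reaching it.

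TGF-beta and BMP genes were the list with the most higher members after filtering. Of 37 measured, 28 had a positive and 9 a negative difference, with a median of 0.46; of 26 filtered, 13 were higher (against 9.82% of all genes) and 2 lower, and 11 of the 13 persisted. Above the median on both controls 6 of 18 were higher and 2 lower. TGFB2 was at 9.31, 9.02 and 9.03 on the A549 arrays against 4.72 and 5.53 on the CRL-5907 arrays. TGFB1 differed by 2.90, while TGFB3, below the filter, differed by -0.34. Of the BMP ligands, BMP4 was at 7.36, 7.42 and 7.0 on the A549 arrays against 4.68 and 5.13 on the CRL-5907 arrays, BMP6 differed by 3.23 and BMP2 by 1.27. The receptors TGFBR2 (1.89), TGFBR1 (1.54) and BMPR2 (1.25) were higher, and TGFBR3, a co-receptor, lower (-1.08). The SMAD proteins that carry the signal were within 2-fold: SMAD2 (-0.30), SMAD3 (0.15) and SMAD4 (-0.33). Of the ID genes, which BMP signals are known to induce, ID3, ID2 and ID1 were higher. ID3, an inhibitor of helix-loop-helix factors, was at 8.05, 8.55 and 8.50 on the A549 arrays against 4.21 and 3.71 on the CRL-5907 arrays. ID2 differed by 3.66 and ID1 by 1.43, while ID4, below the filter on both controls, differed by 0.67. PMEPA1, which dampens TGF-beta receptor signals (1.90), and LTBP1, which holds latent TGF-beta in the matrix (2.17), were higher. FST, follistatin, which binds activins, was lower, at 6.28, 6.74 and 6.52 on the A549 arrays against 9.35 and 8.07 on the CRL-5907 arrays; its overexpression array lay nearer to A549 than the CRL-5907 control did.

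Of 27 filtered WNT genes 6 were higher (against 9.82% of all genes) and 1 lower, and above the median on both controls 2 of 16 were higher and none lower. DKK1, a secreted inhibitor that blocks the LRP co-receptors, had the second largest difference of all, at 11.27 on the A549 control, 11.57 with hairpin 1, 11.37 with hairpin 2, 4.18 on the CRL-5907 control and 4.08 with overexpression. RNF43, a ubiquitin ligase that removes WNT receptors from the surface, differed by 3.71 and SFRP1, a secreted antagonist, by 1.97. The receptors FZD7 (1.27), FZD8 (1.24) and FZD2 (1.10) were higher. The only WNT ligand past 2-fold was WNT5A, which was lower (-1.66). AXIN2, a common read-out of canonical WNT activity, differed by 0.57, within 2-fold.

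Further genes among the 25 highest were of several kinds. CNTN1, an adhesion molecule of axons, was at 9.64, 9.99 and 9.87 on the A549 arrays against 2.79 and 3.15 on the CRL-5907 arrays. NRCAM, a related neuronal adhesion molecule, differed by 5.88. UCHL1, a neuronal ubiquitin hydrolase, was at 10.95, 10.95 and 10.95 on the A549 arrays against 6.33 and 6.20 on the CRL-5907 arrays, with near-identical levels on the 3 A549 arrays. NTRK3, a neurotrophin receptor (4.59), INA, a neurofilament-type protein (4.58), and SLITRK6 (4.74) were also in that group. Of 12 neuroendocrine markers 7 were below the filter, CHGA and SYP among them; CHGB (2.92), UCHL1 and ENO2 (1.73) were higher, or 2 of 3 above the median on both controls. The rest of the 25 included SLC27A2, a very-long-chain acyl-CoA synthetase of peroxisomes (10.22, 10.23 and 10.30 on the A549 arrays against 3.45 and 4.17 on the CRL-5907 arrays), CEACAM7, an adhesion molecule of colon epithelium (10.63, 11.04 and 10.84 on the A549 arrays against 4.13 and 3.75 on the CRL-5907 arrays), and the odorant-type receptor OR51E1 (5.84). ANXA13 (4.64), RARRES1 (4.79), SRPX (4.94) and SLFN5 (4.62) belonged to it as well.

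**Figure D4:**
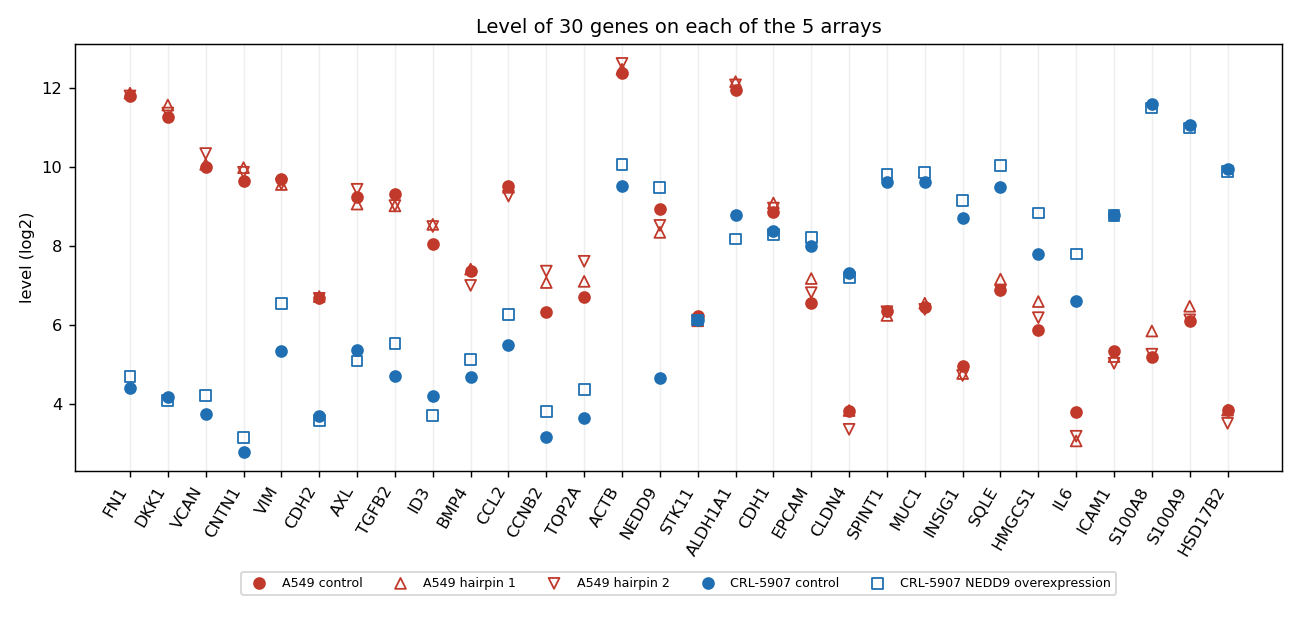
Log2 level (vertical) of 30 genes (horizontal) on each of the 5 arrays; red marks are A549, blue marks CRL-5907, filled circles the controls, open marks manipulated cells, and 1 mark is 1 array. The red and blue marks stand apart for FN1, DKK1, S100A8 and HSD17B2, meet for STK11, and overlap for NEDD9, whose overexpression array lies at 9.49.

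On the CRL-5907 side the 3 calgranulins were among the 4 widest gaps. S100A8 and S100A9 form calprotectin, an antimicrobial calcium-binding pair abundant in neutrophils and inflamed epithelia. S100A8 was at 5.18 on the A549 control, 5.85 with hairpin 1, 5.26 with hairpin 2, 11.60 on the CRL-5907 control and 11.50 with overexpression, S100A9 at 6.10, 6.48 and 6.13 on the A549 arrays against 11.08 and 10.99 on the CRL-5907 arrays and S100A12 at 2.75, 2.59 and 2.77 on the A549 arrays against 7.44 and 7.44 on the CRL-5907 arrays. The 3 genes were consecutive among the filtered genes in RefSeq order. S100A14 (-2.78) and S100P (-2.15) were lower in A549 too, so that 5 of 9 filtered S100 genes were lower (against 4.98% of all genes) and none higher, all 5 in every pairing. Above the median on both controls the S100 and CEACAM list held 8 genes, 1 higher and 3 lower. Leukocyte markers were low on both controls: PTPRC lay at 1.72 on A549 and 1.72 on CRL-5907, SPI1 at 5.70 and 5.15, and CD53 at 3.52 and 3.24, and 12 of the 13 were not above the filter on either control.

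LY96, the co-receptor of TLR4, was at 2.24, 2.65 and 2.33 on the A549 arrays against 6.15 and 6.29 on the CRL-5907 arrays. ICAM1, an adhesion molecule for leukocytes, was at 5.35, 5.20 and 5.03 on the A549 arrays against 8.79 and 8.78 on the CRL-5907 arrays. IL6, an inflammatory cytokine, was at 3.80, 3.06 and 3.18 on the A549 arrays against 6.61 and 7.80 on the CRL-5907 arrays. TNIP3, an inhibitor of NF-kB (-3.63), DEFB1, an antimicrobial defensin (-3.48), LCN2, a siderophore-binding protein (-2.0), and ALOX5, the first enzyme of leukotriene synthesis (-3.15), were lower in A549. The receptors IL6R (-1.31) and IL4R (-1.20) were lower too. LY96 and TNIP3 are among the 25 lowest genes, and DEFB1 and ALOX5 were chosen after their values were seen; these 4 belong to no list. The cytokine list had no common direction. CCL2, a monocyte chemokine, was higher in A549, at 9.53, 9.49 and 9.27 on the A549 arrays against 5.49 and 6.27 on the CRL-5907 arrays, as were IL18 (2.14) and CXCL8 (2.0). The list of 35 had a median of 0.03. Of 25 filtered 3 were higher and 5 lower (against 9.82% and 4.98% of all genes), or 2 and 3 of 21 above the median on both controls. Interferon-stimulated genes were mixed: OAS1 (-1.65), STING1 (-1.27) and IFI16 (-1.07) were lower, and IFITM1 (2.01) and IFI6 (1.93) higher, among 15 filtered (against 4.98% lower and 9.82% higher of all genes). Above the median on both controls 2 of 9 were lower and 1 higher. With the overexpression array in place of the CRL-5907 control 8 of 19 filtered interferon genes were lower in A549 and 1 higher. TAP2, a peptide transporter of MHC class I, was lower (-1.24), while B2M (0.60) and HLA-E (0.63) were within 2-fold.

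Complement genes were lower in A549 in 5 of 8 filtered members, with a median of -1.04 over 9 (against 4.98% of all genes lower). C1S, the serine protease of the C1 complex, was at 8.68, 8.83 and 8.38 on the A549 arrays against 11.11 and 11.11 on the CRL-5907 arrays. CFI (-1.26), C3 (-1.18), C1R (-1.08) and CD55 (-1.04) followed, and of these 5 genes only C1S and C1R persisted. The other 3 filtered members were within 2-fold, with C4BPA (0.75) and C5 (0.49) brighter on A549 and CFB (-0.34) dimmer. The liver-type plasma proteins as a whole, complement included, had a median of -0.02. Of 29 filtered 5 were higher and 10 lower (against 9.82% and 4.98% of all genes). Above the median on both controls 1 of 19 was higher and 7 lower. The balance changed with the array used. With hairpin 1 in place of the A549 control 10 of 30 were higher and 7 lower, and with hairpin 2 the counts were 6 and 8 of 28. With the overexpression array in place of the CRL-5907 control they were 5 and 10 of 26. APOH, a phospholipid-binding plasma glycoprotein, was at 8.67, 9.23 and 8.80 on the A549 arrays against 2.90 and 2.55 on the CRL-5907 arrays. VTN, vitronectin, was at 9.11, 9.29 and 9.28 on the A549 arrays against 4.36 and 4.56 on the CRL-5907 arrays, and PROS1, the anticoagulant protein S, differed by 3.34. In the other direction were KNG1, kininogen, at 5.20, 6.08 and 5.82 on the A549 arrays against 8.35 and 7.75 on the CRL-5907 arrays, ALB, albumin, at 4.07, 5.24 and 4.41 on the A549 arrays against 6.82 and 6.29 on the CRL-5907 arrays, and AGT, angiotensinogen (-2.03). The fibrinogen chains FGA (-0.88), FGB (-0.95) and FGG (-0.84) were each just within 2-fold on the CRL-5907 side. Of 18 filtered endoderm transcription factors 5 were higher (against 9.82% of all genes) and 1 lower, or 3 and 1 of 13 above the median on both controls. FOXA1 (-0.32), FOXA2 (0.38), FOXA3 (0.00) and GATA6 (0.21) were near equal. TBX3 (2.79), HHEX (2.44), SOX9 (1.18), NR5A2 (1.14) and ONECUT1 (1.13) were higher in A549, the first 3 in all 6 pairings, and EHF, an epithelial ETS factor, lower (-1.59).

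The 25 lowest genes also held enzymes and factors of no list. HSD17B2, which oxidises sex steroids, was at 3.84, 3.84 and 3.51 on the A549 arrays against 9.97 and 9.89 on the CRL-5907 arrays. HAL, the first enzyme of histidine breakdown (-4.10), HPD, of tyrosine breakdown (-3.58), VNN1, which hydrolyses pantetheine (-4.43), and ACSS3, a mitochondrial acyl-CoA synthetase (-4.31), were among them. So were TRPS1, a GATA-type repressor, at 3.12, 3.51 and 3.06 on the A549 arrays against 7.79 and 7.64 on the CRL-5907 arrays, ZIC1 (-4.03) and SATB1 (-3.96). CCNA1, a cyclin largely restricted to germ cells, was at 3.45, 3.26 and 3.44 on the A549 arrays against 7.54 and 9.54 on the CRL-5907 arrays, and the overexpression array lay farther from A549 than the CRL-5907 control. Of 17 filtered lung lineage genes 7 were higher and 3 lower (against 9.82% and 4.98% of all genes), or 5 and 3 of 14 above the median on both controls. MUC1, a membrane mucin, was at 6.47, 6.55 and 6.40 on the A549 arrays against 9.61 and 9.86 on the CRL-5907 arrays, whereas AGR2 (1.75), FCGBP (1.91) and TFF1 (1.42), all secretory, were higher in A549. LCN2, listed with the same secretory genes, was lower (-2.0), as was LPCAT1 (-1.47). The other higher members were TPPP3 (1.69), CYP24A1 (1.62), CAV1 (1.61) and ABCA3 (1.19).

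Cholesterol synthesis genes were lower in A549 as a group. The pathway converts acetyl-CoA to cholesterol through mevalonate and squalene, and its genes are switched on together by SREBP2 when cell sterols are low. All 10 measured cholesterol genes had a negative difference, with a median of -1.21 (-1.74 to -1.21 over the 6 pairings); 7 of 10 were lower (against 4.98% of all genes) and 6 of those persisted. INSIG1, which retains the SREBP complex in the endoplasmic reticulum and is itself induced by SREBP, was at 4.96, 4.77 and 4.72 on the A549 arrays against 8.72 and 9.15 on the CRL-5907 arrays. SQLE, squalene epoxidase, was at 6.89, 7.16 and 6.88 on the A549 arrays against 9.49 and 10.05 on the CRL-5907 arrays. HMGCS1, which makes HMG-CoA, was at 5.86, 6.60 and 6.19 on the A549 arrays against 7.81 and 8.84 on the CRL-5907 arrays. LSS (-1.24), DHCR7 (-1.22), MVK (-1.20) and IDI1 (-1.16) were lower, and SC5D (-0.84), FDPS (-0.63) and NSDHL (-0.41) were within 2-fold. Of 11 fatty acid genes 3 were higher and 2 lower (against 9.82% and 4.98% of all genes), with a median of 0.02. FASN, fatty acid synthase (-1.38), and ACSL1, an acyl-CoA synthetase (-1.04), were lower, whereas SCD5, a desaturase (1.95), ELOVL6, an elongase (1.46), and ACACB, a mitochondrial acetyl-CoA carboxylase (1.45), were higher, and ACACA (0.02) and SREBF1 (-0.10) were near equal. The 3 higher genes passed the filter only through A549: above the median on both controls the whole list held 15 genes, none higher and 7 lower. CTH, which makes cysteine from cystathionine, was lower (-2.65) in an amino acid list that otherwise held no 2-fold difference among 13 filtered genes.

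Many mitosis genes were higher in A549. The list of 32 measured had the highest median of the 37 lists, 1.00 (0.60 to 1.66 over the 6 pairings), with 29 positive and 3 negative differences. Only 16 members passed the filter; 10 of these were higher (against 9.82% of all genes), none lower, and 7 persisted. Above the median on both controls only 5 remained, of which 1 was higher (against 6.24%), so most of these differences rest on CRL-5907 levels below the array median. CCNB2, cyclin B2, which activates CDK1 at entry into mitosis, was at 6.34, 7.08 and 7.37 on the A549 arrays against 3.17 and 3.80 on the CRL-5907 arrays. TOP2A, the topoisomerase that untangles chromosomes, was at 6.72, 7.11 and 7.62 on the A549 arrays against 3.65 and 4.37 on the CRL-5907 arrays. PTTG1, securin (2.58), PLK1, Polo-like kinase 1 (2.16), PRC1, of the spindle midzone (2.05), and MKI67, the Ki-67 antigen (1.97), followed. NUSAP1, a spindle protein, went the other way between the controls (-0.87). With the overexpression array in place of the CRL-5907 control 7 of 16 members were higher and 1 lower. Of 14 filtered G1/S members 6 were higher (against 9.82% of all genes) and 3 persisted, led by CHEK1 (1.97), GINS1 (1.95), RRM1 (1.79) and RRM2 (1.75). All 6 passed the filter only through A549: of the 7 members above the median on both controls none was higher or lower. The list median was 0.24, and -0.0027 with the overexpression array. The number of cycling cells at harvest is not known from the labels, so more cycling cells and more RNA per cell cannot be told apart.

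The promoters of 4 mitosis genes are shown because a promoter motif recurs in this group. A window of 300 bases, from 250 before to 50 after the annotated start (RefSeq, GRCh38.p14), was searched on both strands for the cell cycle homology region, written TTTGAA, a motif known from genes expressed in late cell cycle; capitals mark each match. The motif was chosen after the mitosis list was seen to differ.
CCNB2, chr15:59104896-59105195, plus strand: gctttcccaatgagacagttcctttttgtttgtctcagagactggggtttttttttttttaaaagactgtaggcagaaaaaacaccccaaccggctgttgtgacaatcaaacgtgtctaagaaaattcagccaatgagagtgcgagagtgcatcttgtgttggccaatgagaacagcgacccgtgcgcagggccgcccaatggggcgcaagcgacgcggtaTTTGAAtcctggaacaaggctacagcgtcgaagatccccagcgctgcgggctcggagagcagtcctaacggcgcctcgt
TOP2A, chr17:40417847-40418146, minus strand: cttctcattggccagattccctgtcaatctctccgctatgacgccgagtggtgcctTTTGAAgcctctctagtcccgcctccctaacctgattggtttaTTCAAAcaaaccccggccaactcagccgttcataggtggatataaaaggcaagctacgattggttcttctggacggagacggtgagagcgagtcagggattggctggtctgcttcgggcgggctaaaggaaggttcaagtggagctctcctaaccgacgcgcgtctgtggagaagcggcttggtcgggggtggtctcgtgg
PLK1, chr16:23678639-23678938, plus strand: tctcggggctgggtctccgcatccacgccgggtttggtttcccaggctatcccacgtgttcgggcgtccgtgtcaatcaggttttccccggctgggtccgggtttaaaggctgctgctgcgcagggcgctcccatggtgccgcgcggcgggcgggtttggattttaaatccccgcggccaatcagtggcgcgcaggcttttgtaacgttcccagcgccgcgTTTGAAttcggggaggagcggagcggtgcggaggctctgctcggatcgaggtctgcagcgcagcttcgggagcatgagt
PRC1, chr15:90994486-90994785, minus strand: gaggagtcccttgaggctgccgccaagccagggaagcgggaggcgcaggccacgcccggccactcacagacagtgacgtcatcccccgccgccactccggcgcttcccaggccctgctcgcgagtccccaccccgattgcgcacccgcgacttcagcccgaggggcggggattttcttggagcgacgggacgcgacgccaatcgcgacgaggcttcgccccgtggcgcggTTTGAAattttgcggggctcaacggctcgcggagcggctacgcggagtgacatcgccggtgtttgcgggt
The match began 29 bases before the start in CCNB2 and PLK1 and 20 before it in PRC1, and TOP2A had matches 194 and 151 bases before it. Of the 13 filtered mitosis genes with a promoter on record, 8 held it (61.5%): CCNB2, TOP2A, PLK1, PRC1, MKI67, CENPA, ECT2 and NUSAP1. The motif was not confined to this list. It was in 8 of 24 promoters of liver-type plasma proteins (33.3%) and 4 of 13 of the CREB and CRTC list below (30.8%). Lower shares were found for cholesterol and fatty acid genes (2 of 19, 10.5%), NRF2 genes (2 of 24, 8.33%) and cytokines (1 of 16, 6.25%). Among the 6409 filtered genes with a promoter the share was 8.57%, and over all 27305 promoters searched it was 15.4%. It was 12.7% of the genes higher in A549 and 12.1% of the lower ones, so the shares of the higher and lower genes were close to each other and both above that of all filtered genes. A match is a stretch of letters and does not show a bound factor; ECT2 (0.48) and NUSAP1 hold it without being higher.

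NRF2 is a transcription factor, held back by KEAP1, that switches on genes of glutathione, NADPH and detoxification. Of 31 filtered NRF2 genes 27 were within 2-fold, 3 were higher and 1 lower, shares close to those of all genes (9.82% and 4.98%); above the median on both controls the counts were 3 and 1 of 30. The 3 higher were ALDH1A1, a retinaldehyde dehydrogenase, at 11.97, 12.17 and 12.08 on the A549 arrays against 8.79 and 8.18 on the CRL-5907 arrays, ALDH3A1 (2.28) and GCLC, the catalytic subunit of glutathione synthesis (1.18); the lower was BACH1, a repressor of the same genes (-1.19). PGD (0.30), ME1 (0.37), GPX2 (0.40), SLC7A11 (-0.43) and GCLM (-0.77) were within 2-fold. The list median was 0.18, and -0.12 with the overexpression array. The antioxidant response element, TGACNNNGC, lay in 9 of 24 promoters of this list (37.5%) and in 15.7% of filtered genes, but in 12.7% of the genes higher in A549 and 14.3% of the lower ones. The element was also in 4 of 13 mitosis promoters (30.8%), 3 of 13 of the CREB and CRTC list below (23.1%) and 3 of 16 cytokine promoters (18.8%). It was in 3 of 24 promoters of liver-type plasma proteins (12.5%) and 0 of 19 of cholesterol and fatty acid genes. The promoters of TXNRD1 and GCLM are shown because they hold it while neither gene was higher in A549; capitals mark the matches.
TXNRD1, chr12:104215529-104215828, plus strand: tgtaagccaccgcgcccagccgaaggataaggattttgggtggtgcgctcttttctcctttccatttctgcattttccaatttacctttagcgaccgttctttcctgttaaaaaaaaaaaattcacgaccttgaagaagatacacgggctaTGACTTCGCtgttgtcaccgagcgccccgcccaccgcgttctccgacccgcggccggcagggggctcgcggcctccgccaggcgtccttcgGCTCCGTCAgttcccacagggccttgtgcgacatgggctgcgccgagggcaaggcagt
GCLM, chr1:93909381-93909680, minus strand: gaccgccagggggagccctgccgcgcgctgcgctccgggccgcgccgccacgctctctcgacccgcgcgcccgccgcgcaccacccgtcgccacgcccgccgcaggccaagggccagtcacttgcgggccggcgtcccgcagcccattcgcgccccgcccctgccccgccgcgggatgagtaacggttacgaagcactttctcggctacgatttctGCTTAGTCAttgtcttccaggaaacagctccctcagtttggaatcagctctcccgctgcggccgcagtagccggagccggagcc
TXNRD1, thioredoxin reductase, was at 9.66, 9.92 and 9.89 on the A549 arrays against 10.62 and 10.97 on the CRL-5907 arrays, and GCLM, the modifier subunit of glutathione synthesis, at 6.76, 6.98 and 6.85 on the A549 arrays against 7.53 and 8.14 on the CRL-5907 arrays; both were dimmer on every A549 array than on the CRL-5907 arrays. Of the other motifs searched, the cAMP response element TGACGTCA was in 3.06% of the promoters of higher genes, 1.07% of lower genes and 3.32% of all filtered genes. The AP-1 site TGACTCA, which can overlap the antioxidant element, was in 3.23%, 6.79% and 3.11%. The HNF1 site was in 1 of 27305 promoters and in none of the filtered genes. The sterol element TCACNCCAC, chosen after the cholesterol list was seen to differ, was in 0 of 9 cholesterol promoters and 1.03% of filtered genes. A motif that is not found says only that these letters are not in this window.

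Of 20 filtered members of the LKB1 complex, AMPK and its relatives 1 was lower, SIK2, a salt-inducible kinase that LKB1 activates (-1.12), and none was higher, against 4.98% and 9.82% of all genes; all 20 were above the median on both controls. The 6 AMPK subunits had a median of -0.47, with 5 negative differences, none of them 2-fold. STRADA (0.51) and CAB39 (0.38), which form the active complex with LKB1, were within 2-fold. The list median was -0.35 between the controls but -0.02 and -0.01 with hairpin 1 and hairpin 2 in place of the A549 control. Salt-inducible kinases hold back CRTC, a coactivator of CREB. Of 14 filtered CREB and CRTC genes 3 were higher and 1 lower (against 9.82% and 4.98% of all genes). Above the median on both controls 3 of 13 were higher and none lower. PTGS2, inducible cyclooxygenase, was at 10.29, 10.25 and 10.18 on the A549 arrays against 7.89 and 9.65 on the CRL-5907 arrays, ID1 (1.43) and FOS (1.11) were higher and LYPD3 was lower (-1.50). Among the higher genes only ID1 persisted, while FOS fell to 0.65 and PTGS2 to 0.52 in their closest pairing. The lower gene LYPD3 persisted. NR4A1 (-0.40), SIK1 (0.22) and CPS1 (-0.03) were within 2-fold. INSL4, an insulin-family gene, was at 5.79, 6.92 and 6.99 on the A549 arrays against 3.57 and 3.94 on the CRL-5907 arrays, below the filter on both controls. None of 15 filtered SWI/SNF subunits differed by 2-fold, with ARID1A differing by -0.59 and SMARCA2, an ATPase of the complex, by 0.61; SMARCA4 was not above the filter on either array. None of 7 filtered Notch genes differed by 2-fold. With 14.8% of all genes called, lists this short say little by a count of 0. Receptors of the EGF family were within 2-fold, EGFR differing by 0.83, ERBB2 by 0.46, ERBB3 by -0.54 and the receptor MET by -0.05. The ligand NRG1 was higher (2.15) and the ligand EGF lower (-1.97). Of 22 filtered members of the EGF family list 3 were higher and 3 lower (against 9.82% and 4.98% of all genes). Above the median on both controls the counts were 3 and 1 of 20.

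Of 31 filtered hypoxia and glycolysis genes 10 were higher and 1 lower (against 9.82% and 4.98% of all genes), and 5 of the 10 persisted; above the median on both controls 7 of 27 were higher and 1 lower. STC1, a secreted glycoprotein induced by low oxygen, was at 7.76, 7.63 and 7.56 on the A549 arrays against 4.09 and 5.10 on the CRL-5907 arrays. HK1, a hexokinase (1.74), ENO2, an enolase (1.73), EGLN3, an oxygen-sensing prolyl hydroxylase (1.69), and the collagen hydroxylases P4HA2 (1.64) and P4HA1 (1.35) were higher, PFKFB2 was lower (-1.03), VEGFA differed by -0.95 and the glycolytic enzymes ALDOA (-0.06), ENO1 (-0.03) and LDHA (-0.07) were near equal. Of 17 filtered p53 targets 3 were higher and 2 lower (against 9.82% and 4.98%); the 3 passed the filter only through A549, and above the median on both controls none of 14 was higher and 2 were lower. PLK2 was at 8.20, 8.06 and 8.06 on the A549 arrays against 5.12 and 6.49 on the CRL-5907 arrays and TP53I3 (1.65) and TP53INP1 (1.35) were higher, while MDM2, the ligase that degrades p53, was lower (-1.44), as was TNFRSF10D (-1.43); CDKN1A differed by -0.81.

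Common reference genes were not all equal. Of 10 measured, 8 were within 2-fold, among them TBP (-0.02), POLR2A (-0.03), YWHAZ (-0.15), GUSB (0.27) and PPIA (0.36). ACTB, beta-actin, was at 12.38, 12.48 and 12.63 on the A549 arrays against 9.53 and 10.08 on the CRL-5907 arrays, 7.22-fold higher on the A549 control. HPRT1, of purine salvage, was at 7.73, 7.79 and 7.82 on the A549 arrays against 5.67 and 6.28 on the CRL-5907 arrays, 4.18-fold higher. Both persisted in all 6 pairings, and HPRT1 was below the array median on the CRL-5907 control. FSCN1, an actin-bundling protein (9.74, 8.89 and 9.50 on the A549 arrays against 5.59 and 5.83 on the CRL-5907 arrays), and SLC29A4, a monoamine transporter (2.57), form a run with ACTB among the filtered genes in RefSeq order and were higher as well.

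Such neighbourhoods were counted, but the number to expect from the shares of called genes alone was not computed. In RefSeq order 7754 filtered genes gave 32 runs of 3 or more consecutive filtered genes that all differed by 2-fold in the same direction, 22 higher and 10 lower in A549, with 104 genes in all. The longest held 6 genes, ZNF195 (1.19), NUP98 (1.02), PGAP2 (1.44), RHOG (1.45), STIM1 (1.13) and RRM1 (1.79), all higher by under 4-fold. TM2D2 (1.49), ADAM9 (1.06), TCIM (5.01), ZMAT4 (2.93) and SFRP1 formed a run of 5 higher genes. SGCE (2.40), PEG10 (2.38), PON2 (1.74) and PDK4 (3.03) formed another, of which SGCE and PEG10 are adjacent imprinted genes. On the lower side were GCHFR (-2.42), SPINT1, RHOV (-2.24) and VPS18 (-1.94), and KLHL2 (-1.36), MSMO1, a further cholesterol synthesis enzyme (-2.04), CPE (-1.95) and ANXA10 (-3.40). Gene copy number was not measured, and its part in these runs was not tested.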

How the data were processed

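The deposited table holds log2 expression values of 22011 features on 5 arrays, made by the authors. The submitters' processing notes name RMA and Affymetrix Power Tools; versions and genome build are not given in the sources used here. RMA corrects background, quantile-normalizes the arrays and summarises probes; the log2 base was taken from the values. Scanner files were not used here, so detection over background is unknown. Of the features, 14432 had 1 symbol in the platform annotation, 2408 several and 5171 none; 14404 of the 14432 matched RefSeq by Entrez number, and 197 genes had several features. Array number limits the precision, and single arrays received no test.

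Computations used Python 3.11.15, pandas 2.3.3 and numpy 2.4.6 and were tested on simulated data. Genes named were NEDD9, STK11, the 25 highest and 25 lowest filtered genes, members of 37 lists and of neighbour runs; exceptions are marked. Members, lists and tests were chosen with earlier results of these data known. Identical values on both controls (205 filtered genes) can arise in RMA. Alternatives were centred arrays, quantile normalization, removal of the trend with level (running median over 501 genes), mean of features, other filters and thresholds (1.5-fold, 4-fold), and each other array in place of a control.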

Additional observations from a re-analysis of the deposited data

How the results depend on the processing

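Genes at least 2-fold higher and lower on the A549 control numbered 762 and 386. The counts were 655 and 466 with centred arrays, 661 and 488 after quantile normalization, 708 and 429 with the trend removed, 757 and 384 with the mean of features, and 916 and 502 with no filter. They were 1056 and 352 with hairpin 1, 923 and 352 with hairpin 2, and 667 and 485 with the overexpression array in place of a control. With the brighter control above the 75th percentile 498 genes were higher and 266 lower, and with both controls above their medians 410 were higher, 204 lower and 383 persisted, against 803 in the count above; fewer genes enter under these filters. At 1.5-fold 1499 were higher and 854 lower, and at 4-fold 211 and 115. Centring moved the median difference of filtered genes from 0.051 to -0.059, and quantile normalization to -0.067. Of 237 named genes past 2-fold 229, 229 and 233 stayed past it under these scalings and trend removal, and 212, 217 and 205 with the hairpin 1, hairpin 2 and overexpression arrays in place of a control. With the overexpression array log2 differences reversed for NEDD9 (-0.55) and HLA-DMB (0.062), and list medians for NRF2 targets (-0.12) and G1/S genes (-0.0027); the HOX list median reversed with hairpin 1 (-0.059) and hairpin 2 (-0.082). The cause was not tested, except that NEDD9 itself was overexpressed. No paired analysis was possible because each control group has 1 array.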

Other observations

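Transporters and receptors outside the groups above also differed. SLCO4A1, an organic anion transporter, was at 6.16, 6.14 and 5.64 on the A549 arrays against 9.11 and 9.55 on the CRL-5907 arrays, and SCNN1A, a subunit of the epithelial sodium channel, at 6.30, 6.57 and 6.30 on the A549 arrays against 8.94 and 8.41 on the CRL-5907 arrays. SLC12A2, a sodium, potassium and chloride cotransporter of secretory cells, went the other way, at 9.48, 9.85 and 9.74 on the A549 arrays against 7.19 and 7.22 on the CRL-5907 arrays, as did ABCG2, a drug exporter (1.29), and ATP8B1, a phospholipid flippase (1.43). Of 17 filtered carriers and channels 4 were higher and 2 lower in A549 (against 9.82% and 4.98% of all genes). Above the median on both controls the counts were 3 and 2 of 15.

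HOXC10 was at 4.48, 4.49 and 4.17 on the A549 arrays against 6.98 and 6.90 on the CRL-5907 arrays and HOXB9 at 7.19, 7.29 and 7.36 on the A549 arrays against 4.99 and 4.49 on the CRL-5907 arrays, while the other 9 filtered HOX genes lay within 2-fold; above the median on both controls none of 6 was higher or lower. MAGEA10, a cancer-testis antigen, was at 4.89, 4.61 and 4.35 on the A549 arrays against 6.85 and 6.60 on the CRL-5907 arrays, and CTAG2 differed by -0.27. CDKN2A was not above the filter on either control (4.77 and 4.64), and CDKN2B differed by 0.17.

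Of the 1148 genes past 2-fold, 17 had more than 1 feature, and in none of these did the features differ in sign. Of the higher genes 352 had a CRL-5907 control level at or below the array median, and of the lower genes 182 had such a level on A549, so the size of these differences is uncertain.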
